A study of Mus musculus with 8 samples.

Results

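Heat shock proteins, J proteins and subunits of the CCT chaperonin were compared between jejunal lower crypts of fasted and fed mice, all dosed with etoposide. The genes were taken by name, every array probe whose gene symbol begins with Hspa, Hspb, Hspd, Hspe, Hsph, Hsp90, Dnaja, Dnajb, Dnajc or Cct2 to Cct8. The rule found 120 probes for 82 gene names, and 70 of the 82 were well above background on at least 4 of the 8 arrays and were measured, out of 19528 genes measured in all. Of the 70, 56 were well above background on all 8 arrays.

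The fasted group was 4 Lgr5EGFP-IRES-CreERT2/+ mice, which carry an EGFP and Cre reporter at the stem cell gene Lgr5, aged 4 to 6 weeks and kept without food for 24 h before 80 mg/kg etoposide was injected into the tail vein. The fed group was 4 mice of the same genotype and age, given the same dose with food before it. Both groups had moistened pellets after the injection and were sampled 3 h later, so fasting and the return of food cannot be told apart. Every mouse had etoposide, a topoisomerase II poison, and the series holds no undosed group. Any response to the drug is therefore part of every array and cannot be measured here. A difference between the groups in that response cannot be told apart from other differences. Lower crypts, the gland bases where stem and Paneth cells sit, were cut from fixed sections by laser capture, and each mouse gave 1 single-colour array, with 2 males and 2 females per group as labelled.

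HSP70 proteins bind and release unfolded stretches of other proteins in a cycle driven by ATP. J proteins (the Dnaj families) deliver the substrate and start ATP hydrolysis, HSP110 proteins exchange the nucleotide, HSP90 acts later on kinases and receptors, and the HSP60 and CCT chaperonins fold proteins inside a closed chamber. Heat shock factor 1 drives many cytosolic members when unfolded proteins accumulate, the unfolded protein response drives those of the endoplasmic reticulum (ER), and the gut epithelium, which renews constantly and secretes heavily, uses both.

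All values below are log2 signals relative to the array's 75th percentile, and differences are fasted minus fed. Probes differ in brightness for reasons other than RNA amount, so a level is compared only between arrays and never between genes. On the fasted arrays 61.1% ± 5.36 of probes were well above background, and on the fed arrays 58.5% ± 4.82 (SD, n = 4 each); the small number of arrays limits the precision. Fasted replicate 3 was least like the rest (Pearson r across genes 0.823 to 0.922) and was scanned on a different day from the other arrays. Fed replicate 4 was labelled female, but Xist was not above background there (raw log2 signal 4.69, against 13.1 to 13.7 on the other arrays labelled female) and the Y-linked Eif2s3y was (9.31). Differences of the genes chosen by rule and medians of the families and main lists were followed without each of these arrays. Where one turned direction or moved by over 1.5 times, the value without that array is given. For genes named on other grounds and for the remaining lists, subsets and probes, no such value is given. Of 14 crypt stem cell genes 13 were measured, Lgr5 being the one on 0 arrays. Their median difference was -0.08, with 6 of the 13 above 0. It was -0.20 without fasted replicate 3 and -0.23 without fed replicate 4, with 4 above 0 each time. Without fed replicate 1 it turned to 0.20, with 9 above 0, so that its direction is not settled. The summed signal of the 13 genes was 184 to 211 on fasted arrays and 219 to 320 on fed arrays, without overlap. That sum came mostly from the brightest probe, that of Ephb3, which was lower in all fasted crypts (-0.33, SE 0.15). The sum therefore says little about the other genes of the list. Olfm4, named here for its difference within the list, was also lower in all fasted crypts (-1.12, SE 0.23). The 20 enterocyte markers were all higher on average in the fasted crypts (median difference 1.14), with a summed signal of 115 to 238 times the 75th percentile on fasted arrays and 58.3 to 102 on fed arrays. Of 14 genes listed for Paneth cells 10 were measured, with a median difference of -0.44. Only 1, Guca2b at 0.18, named here as the exception, was higher. The sums of the list were 500 to 651 on fasted arrays and 651 to 897 on fed arrays. These marker values went with the groups, and their part in the results below was not tested. In captured tissue, more cells of a type and more RNA per cell cannot be told apart.

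No chaperone gene passed the test. By limma with Benjamini-Hochberg adjustment, 0 of the 70 and 0 of 19528 genes had an adjusted p below 0.05 (0% called), the smallest being 0.780. At an unadjusted p below 0.05 there were 2 of the 70, Hsph1 and Dnaja1, both higher in the fasted crypts, where 6.01% of all genes lay below that p 3.78% with higher and 2.22% with lower values in the fasted crypts. The fasted and fed arrays overlapped in every one of the 70, while in 5.12% of all genes they did not, the fasted arrays lying above the fed ones in 2.88% and below them in 2.24%.

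The difference was above 0 for 48 of the 70, where it was above 0 for 43.2% of all genes. The median difference was 0.16 over the 70 and -0.07 over all genes, and the middle of the distribution, between the quartiles, ran from -0.03 to 0.42 over the 70 and from -0.39 to 0.22 over all genes. Restricted to genes well above background on 8 arrays, 39 of 56 chaperones were above 0 with a median of 0.15, beside 45.4% and -0.05 over all such genes. Single differences ran from -1.14 for Dnajc14, named here after its value was seen, to 1.58 for Hsph1. Dnajc14 owed its place to a single array, at -6.04 in fasted replicate 3 and -2.19, -1.22 and -0.54 in the other fasted crypts, against -1.17, -1.55, -1.61 and -1.09 in the fed crypts.

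**Figure D1:**
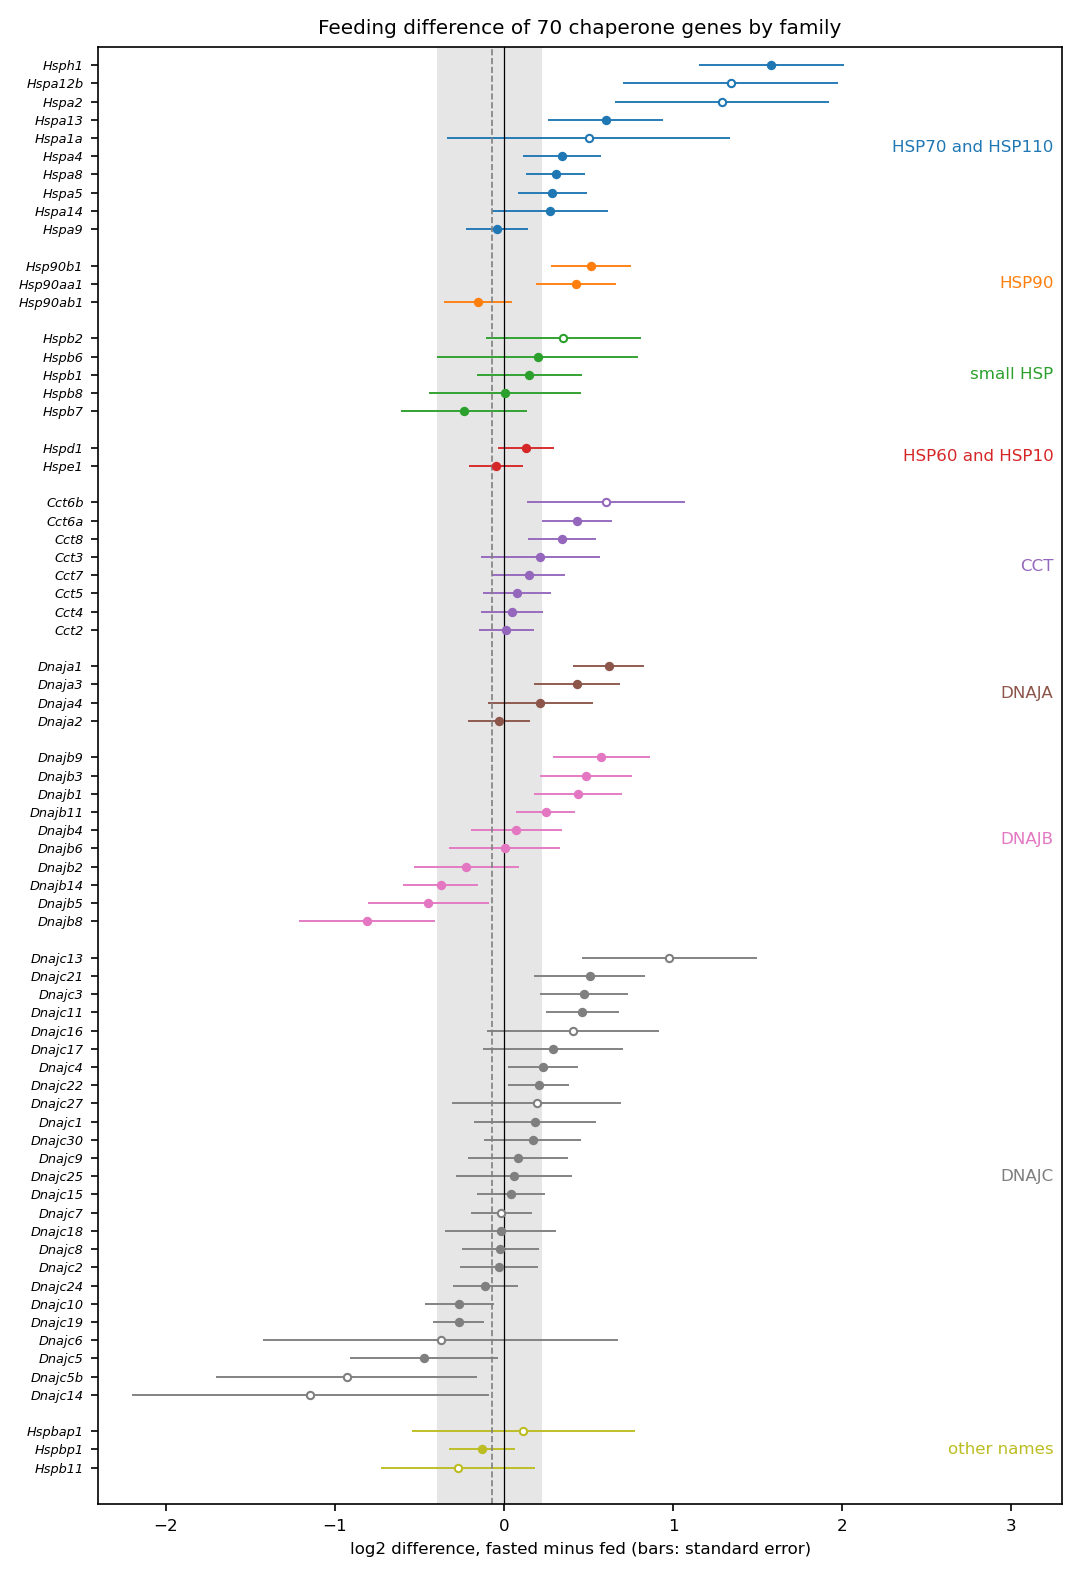
Fasted minus fed difference (log2, x axis) of each of the 70 genes by family, with bars of 1 SE, filled points for genes well above background on 8 arrays and open points for the others, over a grey band for the quartiles and a dashed line for the median of all genes. All 8 CCT points (4 of 8 without fasted replicate 3) and 9 of 10 in the HSP70 and HSP110 group lie right of 0, and Hsph1 lies farthest right at 1.58.

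The HSP70 and HSP110 group had 10 measured genes, 9 with a difference above 0 and a median difference of 0.42 (also 9 of 10, with a median of 0.43, without fasted replicate 3). Hsph1, the inducible HSP110 of the cytosol, which reloads HSP70 with ATP, read 1.39, 2.46, 1.89 and 1.62 in fasted replicates 1 to 4, against -0.50, 0.20, -0.12 and 1.46 in fed replicates 1 to 4. Fed replicate 4 was the one fed array to reach the fasted range, and it is the array whose transcripts contradict its sex label. The difference was 1.58 (SE 0.43), 2.99-fold, with an unadjusted p of 0.00603 and an adjusted p of 0.780 by limma. It was 1.99 without fed replicate 4 and 1.62 without fasted replicate 3. A second Hsph1 probe gave 1.31, with fed replicate 4 again the highest fed array at -0.34. The probe with the stronger signal lies at chr5:150419744-150419803 on the minus strand of mm9.

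The other cytosolic HSP70 genes differed less. Hspa8, the constitutive HSC70 of all cells, read 5.88, 6.27, 6.10 and 5.96 in the fasted crypts, against 5.92, 5.57, 5.51 and 5.98 in the fed crypts. Fed replicates 1 and 4 lay within the fasted range and fed replicates 2 and 3 below it. The difference was 0.31 (SE 0.17), and the 2 further probes gave -0.07 and 0.34. After quantile scaling it was 0.63 (unadjusted p 0.0115 by limma), after normexp and quantile scaling 0.64 (0.0171), and in the authors' deposited matrix 0.56 (0.00698), with adjusted p no lower than 0.296 in any of the 26 alternatives. Hspa1a, the strongly heat-inducible HSP70, read -2.99, -0.66, -3.06 and -2.15 in the fasted crypts, against -4.81, -1.47, -2.50 and -2.07 in the fed crypts. The groups overlapped over most of their range, the probe was above background in 3 of 4 fed arrays, and the difference was 0.50 (SE 0.84). It was -0.33 without fed replicate 1, -0.13 without fasted replicate 2, 0.85 without fasted replicate 3 and 0.75 without fed replicate 4. The near-identical Hspa1b is not analysed here, and its transcripts may contribute to the Hspa1a signal.

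**Figure D2:**
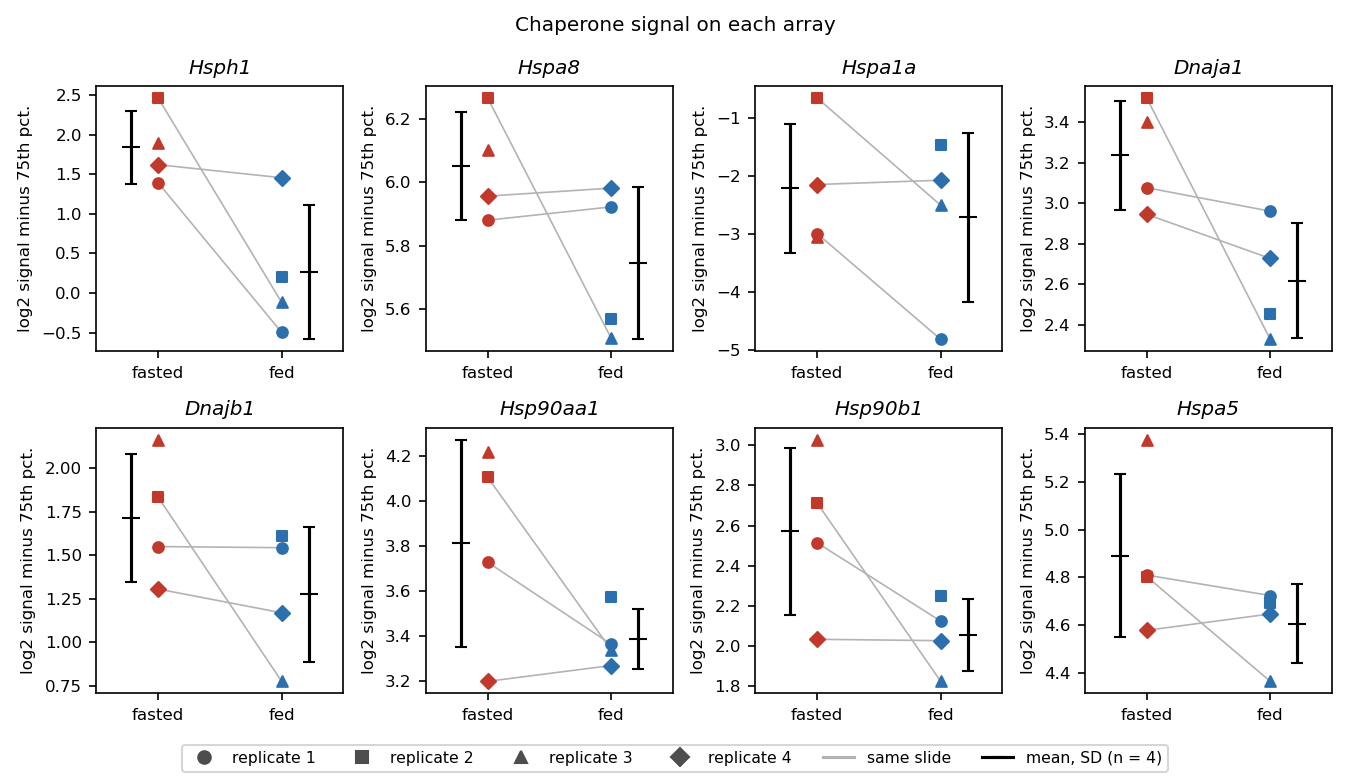
Log2 signal relative to the array's 75th percentile (y axis) of 8 chaperone genes on each fasted array (left) and each fed array (right), with group means and SD (n = 4) and grey lines joining arrays of the same slide. For Hsph1 the 4 fasted arrays sit between 1.39 and 2.46 and a single fed array, at 1.46, reaches them.

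A pair of dim HSP70 genes had the next largest differences of the group. Hspa12b, a distant HSP70 relative best known from endothelium, read -1.56, -2.07, -1.25 and -2.07 in the fasted crypts, against -4.82, -2.18, -3.41 and -1.90 in the fed crypts. It was above background on 4 fasted and 3 fed arrays, and its difference of 1.34 (SE 0.64) was not matched by the second probe, at 0.04. Of 6 endothelial markers 5 were measured and 2 were higher, with sums of 3.14 to 5.13 on fasted arrays and 3.82 to 6.24 on fed arrays. Hspa2, an HSP70 known for its role in male germ cells, read -0.81, -1.14, -2.02 and -2.71 in the fasted crypts, against -2.18, -2.84, -1.89 and -4.94 in the fed crypts (difference 1.29, SE 0.63, or 0.73 without fed replicate 4 and 1.95 without fed replicate 3). The lowest fed value of each gene came from the one fed array where it was not well above background. Both differences depended on the processing, at 0.33 for Hspa12b and 0.59 for Hspa2 with normexp and at 2.01 and 1.85 in the authors' deposited matrix, where Hsph1 gave 1.53. Without fed replicate 1 the Hspa12b difference was 0.74. The mitochondrial HSP70 Hspa9 was nearly level, at 1.62, 1.71, 1.28 and 1.64 in the fasted crypts against 1.57, 1.52, 1.57 and 1.75 in the fed crypts (difference -0.04, SE 0.18). Its difference was 0.06 without fasted replicate 3 and 0.03 without fed replicate 4.

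HSP90 has 3 genes here, 2 with a difference above 0 (3 after quantile scaling) and a median of 0.42. Hsp90aa1, the stress-inducible cytosolic form, read 3.73, 4.10, 4.21 and 3.20 in the fasted crypts, against 3.36, 3.57, 3.34 and 3.27 in the fed crypts. Fasted replicates 1 to 3 lay above all fed arrays and fasted replicate 4 below them, for a difference of 0.42 (SE 0.24). Without fasted replicate 3 the difference, which is also the HSP90 median, was 0.23. A dim second probe, above background on 4 arrays, gave -0.27, and the mean of both probes 0.08. Hsp90ab1, the constitutive cytosolic form, read 5.06, 5.22, 5.81 and 5.27 in the fasted crypts, against 5.67, 5.64, 5.36 and 5.31 in the fed crypts. Its difference was -0.15 (SE 0.20), or -0.33 without fasted replicate 3 and -0.23 without fed replicate 4, and this turned to 0.13 after quantile scaling and to 0.08 in the authors' deposited matrix, so that its direction is not settled.

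Among the 12 genes of the ER 9 had a difference above 0, with a median of 0.27, or 8 with a median of 0.09 without fasted replicate 3. Hsp90b1, the ER form of HSP90 known as GRP94, read 2.51, 2.71, 3.03 and 2.03 in the fasted crypts, against 2.12, 2.25, 1.82 and 2.03 in the fed crypts (difference 0.52, SE 0.24). Here too fasted replicates 1 to 3 were above every fed array and fasted replicate 4 was among them. Hspa5, the ER HSP70 known as BiP, read 4.81, 4.80, 5.38 and 4.58 in the fasted crypts, against 4.72, 4.69, 4.36 and 4.65 in the fed crypts. The order of the fasted arrays was like that of Hsp90b1, with replicate 4 lowest and replicate 3 highest, and the difference was 0.29 (SE 0.21). Without fasted replicate 3 the Hspa5 difference was 0.09 and that of Hsp90b1 0.30. Dnajb9, an ER J protein that takes misfolded proteins to BiP and to degradation, read 0.11, -0.08, 0.76 and 0.16 in the fasted crypts, against -0.97, 0.06, -0.26 and -0.18 in the fed crypts (difference 0.58, SE 0.28). Dnajc3, an ER J protein that also restrains the kinase PERK, read -0.64, -0.44, -0.82 and -0.97 in the fasted crypts, against -0.45, -1.03, -1.79 and -1.48 in the fed crypts (difference 0.47, SE 0.26). In Dnajb9 all fasted arrays but replicate 2 were above the highest fed array, while in Dnajc3 the first fed array was among the fasted ones.

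Hspa5, Hsp90b1 and Dnajc3 share a sequence before their start sites. A search of RefSeq promoter windows of build GRCm38.p6, 250 bases before to 50 after the start, on both strands for CCAAT followed after 9 bases of any kind by CCACG found this ER stress element, bound by factors of the unfolded protein response, in 3 of 56 chaperone genes with a window (5.36%) and in 0.137% of 27025 genes. The stretches are shown because these 3 genes share the element; they lie at chr2:34772005-34772063 on the plus strand, chr10:86705513-86705676 on the minus strand and chr14:118937807-118937865 on the plus strand, and capitals mark the element, which Hsp90b1 carries in both orientations.
Hspa5: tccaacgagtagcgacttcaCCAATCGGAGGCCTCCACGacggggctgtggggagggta
Hsp90b1: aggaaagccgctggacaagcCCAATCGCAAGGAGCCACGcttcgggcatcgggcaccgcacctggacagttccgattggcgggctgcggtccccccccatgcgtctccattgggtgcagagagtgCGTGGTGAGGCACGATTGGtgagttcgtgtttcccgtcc
Dnajc3: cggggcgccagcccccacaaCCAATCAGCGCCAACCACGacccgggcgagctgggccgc
The differences of the 3 genes were 0.29, 0.52 and 0.47. After group means were subtracted, the Pearson correlations among the 3 across the 8 arrays ran from 0.33 to 0.90 (median 0.41), beside a median of 0.07 over 2346 pairs of the chaperone genes. Groups not chosen by the element had medians as high, 0.41 over 28 CCT pairs, 0.42 over 15 pairs of the cytosolic HSP70 and HSP90 machine and 0.64 over the 3 HSP90 pairs, which include the carrier Hsp90b1. These are descriptions on arrays that share slides, and a match is not evidence that a factor bound there.

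The small HSPs, ATP-independent holders of unfolded proteins, had 5 measured genes, 4 with a difference above 0 and a median of 0.15. Without fed replicate 4, 3 of 5 were above 0 with a median of 0.0045, and without fed replicate 1, 2 of 5 with a median of -0.03. Hspb1, known as HSP25 in mice, read -1.92, -2.11, -1.41 and -1.34 in the fasted crypts, against -2.30, -1.49, -1.56 and -2.02 in the fed crypts. The groups covered nearly the same range (difference 0.15, SE 0.31), and without fed replicate 4 the difference was 0.0045. Hspb2 and Hspb7, both best known from muscle, gave differences of 0.35 (SE 0.46) and -0.24 (SE 0.37), the second being -0.15 without fasted replicate 3. Of the 10 stroma and muscle markers 4 were higher, with sums of 40.0 to 83.7 on fasted arrays and 30.2 to 126 on fed arrays.

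Hspd1 and Hspe1, the HSP60 barrel and the HSP10 lid of the mitochondrial chaperonin, lie head to head on chromosome 1. Hspd1 read 3.35, 3.49, 3.53 and 3.16 in the fasted crypts, against 3.51, 3.24, 3.16 and 3.11 in the fed crypts (difference 0.13, SE 0.16, or 0.04 without fasted replicate 3). Hspe1 read 2.99, 3.26, 3.16 and 2.96 in the fasted crypts, against 3.32, 3.12, 2.95 and 3.17 in the fed crypts (difference -0.05, SE 0.16, or -0.10 without fasted replicate 3 and -0.01 without fed replicate 4). In both genes fed replicate 1 was high and the groups overlapped. The 2 further Hspe1 probes gave -0.31 and -0.51, with fasted replicate 3 lowest on each. With group means subtracted, the pair correlated at 0.79 across the 8 arrays.

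The heat shock element is a run of alternating GAA and TTC units. Its unbroken 3-unit form, searched on both strands as GAA, TTC and GAA with 2 bases of any kind between units, was found in 4 of 56 chaperone promoter windows (7.14%), those of Hspd1, Hspe1, Hsph1 and Dnajb6, and in 0.662% of all genes. It contains both 2-unit forms, GAANNTTC and TTCNNGAA, each of which reads the same on both strands. GAANNTTC was found in 12 of 56 (21.4%) and in 9.04% of all genes, TTCNNGAA in 8 of 56 (14.3%) and in 9.60%, and at least one of them in 16 of 56 (28.6%) and in 17.0%. The stretches below, from the same RefSeq windows, are shown because the gene with the largest difference and genes near 0 all carry the element. Capitals mark the element. The Hspe1 stretch, at chr1:55088039-55088096 on the plus strand, also serves Hspd1 on the other strand, and its overlapping matches extend the element beyond 3 units. The Dnajb6 stretch lies at chr5:29735832-29735884 on the plus strand and the Hsph1 stretch at chr5:149636281-149636307 on the minus strand, just after the start.
Hspe1: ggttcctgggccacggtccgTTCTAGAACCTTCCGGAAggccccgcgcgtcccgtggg
Dnajb6: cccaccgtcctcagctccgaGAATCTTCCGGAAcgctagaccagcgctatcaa
Hsph1: ctgcagaTTCTGGAAAGTTCtcctcag
The differences were -0.05 for Hspe1, 0.13 for Hspd1, 0.00 for Dnajb6 and 1.58 for Hsph1. Dnajb6, a suppressor of protein aggregation, is named for its motif and was not among the genes chosen by rule. It read 1.11, 0.96, 2.04 and 0.75 in the fasted crypts, against 1.66, 1.20, 1.16 and 0.82 in the fed crypts. Its difference near 0 depended on fasted replicate 3, its highest array, and the value without that array is not given. Before their starts Hsph1 held TTCNNGAA, at chr5:149636342-149636389 on the minus strand, and GAANNTTC was held by Hspa1a, at chr17:34972233-34972280 on the minus strand, and Dnaja1, at chr4:40722324-40722371 on the plus strand; capitals mark these pairs of units.
Hsph1: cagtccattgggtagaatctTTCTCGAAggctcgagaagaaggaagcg
Hspa1a: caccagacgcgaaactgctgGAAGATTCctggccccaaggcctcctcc
Dnaja1: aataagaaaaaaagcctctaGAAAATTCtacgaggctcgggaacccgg

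The CCT family had 8 measured genes, all 8 with a difference above 0 (median 0.18, range 0.01 to 0.60), though this rested on fasted replicate 3: without it 4 of 8 were above 0 and the median was 0.05. With normexp background correction and in the authors' deposited matrix 7 of 8 were above 0. With slide as a random block 6 of 8 were above 0, and with array weights 5 of 8, with a median of 0.01. CCT folds actin and tubulin in a ring of 8 different subunits, of which the rule takes all but Tcp1. Cct6a read 0.45, 0.89, 0.50 and 0.15 in the fasted crypts, against 0.12, 0.17, -0.09 and 0.06 in the fed crypts (difference 0.43, SE 0.21). Of the fasted arrays, replicate 4 alone fell within the fed range. Cct8 read 1.94, 1.80, 2.05 and 1.61 in the fasted crypts, against 1.57, 1.91, 1.32 and 1.21 in the fed crypts (difference 0.34, SE 0.20), where fed replicate 2 alone reached the fasted values and the difference was 0.21 without fasted replicate 3. Cct6b, a copy of Cct6a known from testis, had the largest difference at 0.60 (SE 0.47), above background on 7 arrays, and without fed replicate 1, its lowest array, the difference was 0.27 (0.33 without fasted replicate 3). The remaining subunit Tcp1, from the list of partners, gave 0.26 (SE 0.31), -0.06 without fasted replicate 3 and 0.16 without fed replicate 4. The 7 ring subunits other than Cct6b had a median correlation of 0.48 over 21 pairs after group means were subtracted, with a range of -0.44 to 0.78.

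The 4 DNAJA genes had 3 differences above 0 and a median of 0.32. Dnaja1, a farnesylated J protein that serves HSP70 in the cytosol, read 3.08, 3.52, 3.40 and 2.95 in the fasted crypts, against 2.96, 2.46, 2.33 and 2.73 in the fed crypts. The groups overlapped by one pair, fed replicate 1 being just above fasted replicate 4. The difference was 0.62 (SE 0.21), with an unadjusted p of 0.0192 and an adjusted p of 0.780 by limma. A dim second probe gave 1.89 and read -2.44, -2.29, -2.27 and -2.55 in the fasted crypts, against -4.88, -3.97, -5.47 and -2.80 in the fed crypts. It was well above background on 4 fasted arrays but on 1 fed array, so the lower fed values are poorly measured. Dnaja3, the mitochondrial J protein also known as TID1, read 1.47, 1.08, 1.94 and 1.06 in the fasted crypts, against 0.84, 1.26, 0.87 and 0.85 in the fed crypts (difference 0.43, SE 0.26, or 0.21 without fasted replicate 3). Dnaja4, a cytosolic relative of Dnaja1, gave 0.21 (SE 0.31), -0.01 without fasted replicate 1 and 0.34 without fed replicate 4.

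Of the 10 DNAJB genes 6 had a difference above 0 (median 0.04), or 5 without either fasted replicate 3 (median -0.03) or fed replicate 4 (median -0.02). Dnajb1, the inducible J partner of HSP70 known as HSP40, read 1.55, 1.83, 2.16 and 1.31 in the fasted crypts, against 1.54, 1.61, 0.78 and 1.17 in the fed crypts. Fed replicate 3 was lowest and fasted replicate 3 highest; the difference was 0.44 (SE 0.26), or 0.29 without fed replicate 3 and 0.20 without fasted replicate 3. Dnajb3 and Dnajb8 are J proteins best known from testis, and they differed in opposite directions. Dnajb3 read -0.88, -1.46, -1.22 and -1.71 in the fasted crypts, against -1.58, -1.68, -2.00 and -1.94 in the fed crypts (difference 0.49, SE 0.27). Dnajb8 read -0.61, -1.14, -2.24 and -0.38 in the fasted crypts, against 0.01, 0.19, -0.81 and -0.51 in the fed crypts (difference -0.81, SE 0.40), and its difference was -0.47 without fasted replicate 3, its lowest array.

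DNAJC is the largest and most varied family, with proteins that share little beyond the J domain. Of 25 measured genes 14 had a difference above 0 and the median was 0.06, which was 0.01 without fasted replicate 3 and 0.0014 without fed replicate 4, with 13 above 0 each time. Dnajc11, a J protein of the mitochondrial membranes, read 1.38, 1.49, 1.52 and 0.93 in the fasted crypts, against 1.08, 0.72, 0.65 and 1.01 in the fed crypts (difference 0.46, SE 0.22). As with Hsp90aa1 and Hsp90b1, fasted replicates 1 to 3 were above the fed arrays and replicate 4 was not. Dnajc13, an endosomal J protein known as RME-8, read -1.54, -1.66, -2.92 and -2.00 in the fasted crypts, against -4.08, -2.28, -3.19 and -2.48 in the fed crypts. It was above background on 3 arrays of each group, and the difference was 0.98 (SE 0.52), or 0.50 without fed replicate 1. For Dnajc7 the spot of fed replicate 3 was an outlier spot and the fit used 7 arrays. A final 3 genes, Hspbp1, Hspb11 and Hspbap1, are taken by the rule for their names but are not heat shock proteins of these families, and 1 of the 3 had a difference above 0.

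**Figure D3:**
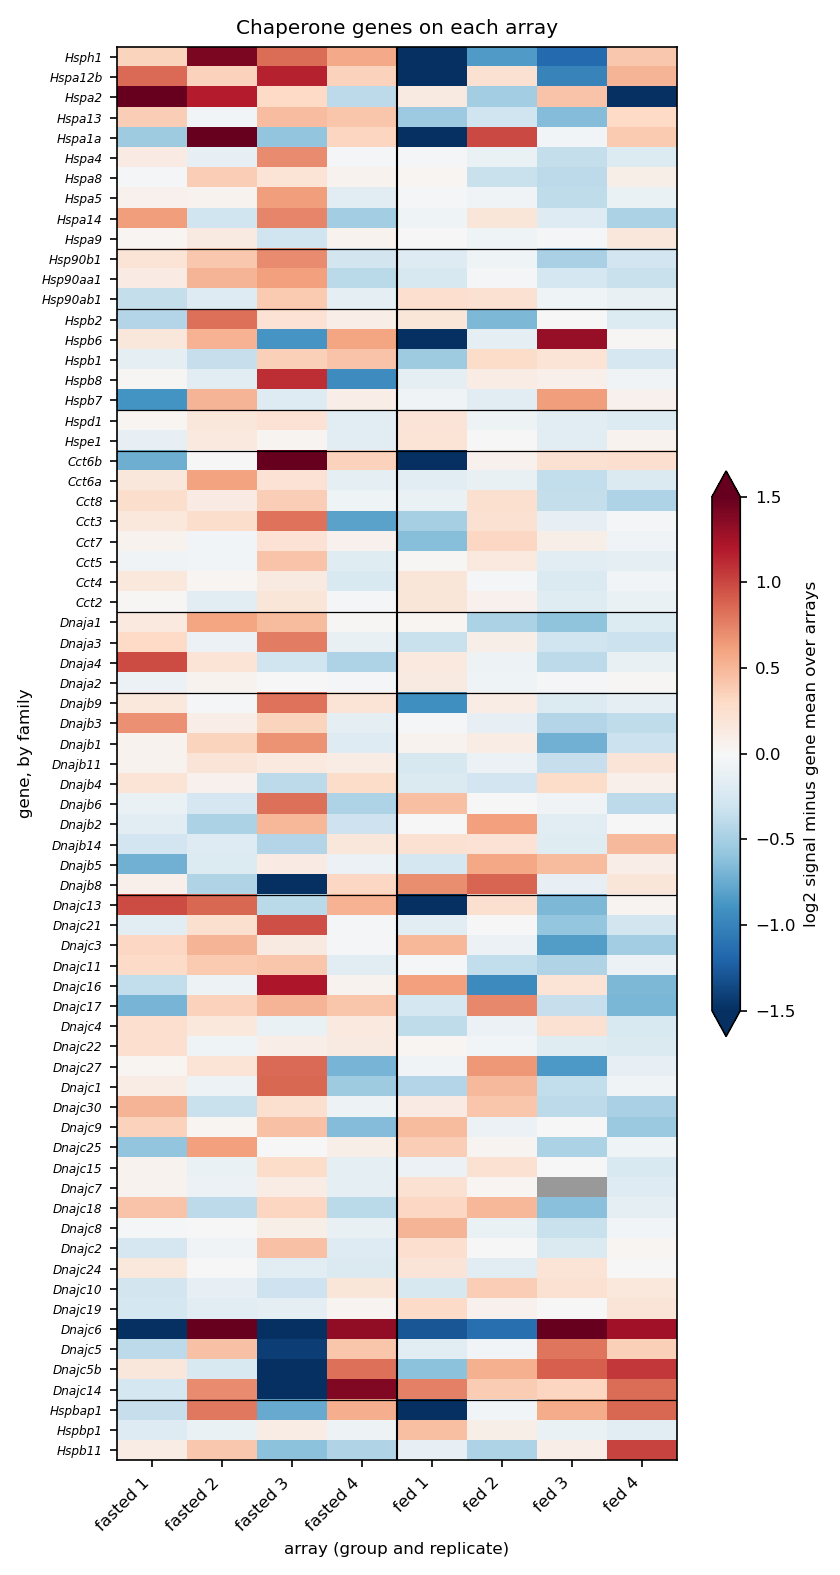
Deviation of each of the 70 genes from its own mean over 8 arrays (log2, colour), with genes in rows by family and the fasted arrays in columns left of the fed arrays; the grey cell is Dnajc7 in fed replicate 3. Fasted replicate 3 holds 50 genes above their own mean and fed replicate 3 holds 21, the highest and lowest counts.

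The chaperone values were not even across the arrays of a group. The number of the 70 genes above their own 8-array mean was 43, 40, 50 and 31 in fasted replicates 1 to 4, against 30, 36, 21 and 27 in fed replicates 1 to 4. Fasted replicate 4 was within the fed range, and fasted replicate 3, which stood apart, was highest. Without fasted replicate 3 the median difference over the 70 was 0.09, beside -0.01 over all genes, and without both it and fed replicate 4 it was 0.08, beside -0.01. The number of genes above 0 was then 41 and 39.

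A set of 3 slides held 1 fasted and 1 fed array each, which allows a comparison within a slide. Fasted replicate 2 was labelled male and fed replicate 3, on its slide, female, so feeding and sex cannot be told apart in that pair. Fasted replicate 4 and fed replicate 4 were both labelled female, but the transcripts of fed replicate 4 contradict its label. Between fasted replicate 1 and fed replicate 1, 39 of the 70 were higher in the fasted crypt (45.1% of all genes) and the median difference was 0.10. Between fasted replicate 2 and fed replicate 3, 46 were higher (44.7% of all genes) with a median of 0.23. Between fasted replicate 4 and fed replicate 4, 38 were higher (50.8% of all genes) with a median of 0.05. The medians over all genes on these slides were -0.09, -0.05 and 0.01. Hsph1 differed by 1.89, 2.58 and 0.16 in the same order. For the HSP70 and HSP110 group the medians were 0.81, 0.68 and -0.04, so that the pair holding fed replicate 4 differed least. Enterocyte markers on the 3 slides had medians of 1.50, 1.24 and 0.72, also smallest on that slide. With slide as a fixed block in the fit and no sex term, the Hsph1 difference was 1.54 with an adjusted p of 0.256 by limma (0.0742 to 0.998 over all alternatives). The median over the 70 was 0.14 and 45 were above 0. In that fit fasted replicate 3 and fed replicate 2, each alone on a slide, add nothing to the difference. It therefore rests on the same 3 pairs of arrays.

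**Figure D4:**
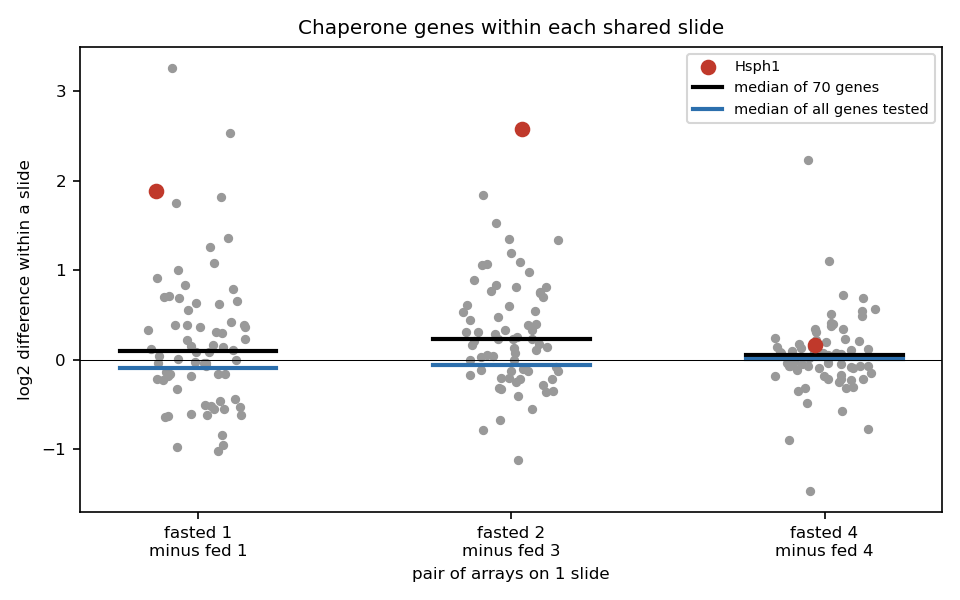
Fasted minus fed difference (log2, y axis) of the 70 genes within each of the 3 slides that held both groups, 1 point per gene. The medians are 0.10, 0.23 and 0.05, and Hsph1 lies at 1.89, 2.58 and 0.16.

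Probes of the same gene often disagreed in direction. Of 18 chaperone genes with more than 1 measured probe, 8 had all probes on one side of 0 and 10 had probes on both sides. The median spread between the highest and lowest probe of a gene was 0.42, and the largest was 1.31 for Hspa12b. Hsph1, Dnaja1, Dnajc11 and Hspa12b had their probes above 0, the Hspe1 probes lay below it, and Hspa8, Hsp90aa1 and Hspa4 had probes on both sides. Hspa4, the constitutive HSP110 also called APG-2, is named for its probes, which ran from -0.28 to 0.40.

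**Figure D5:**
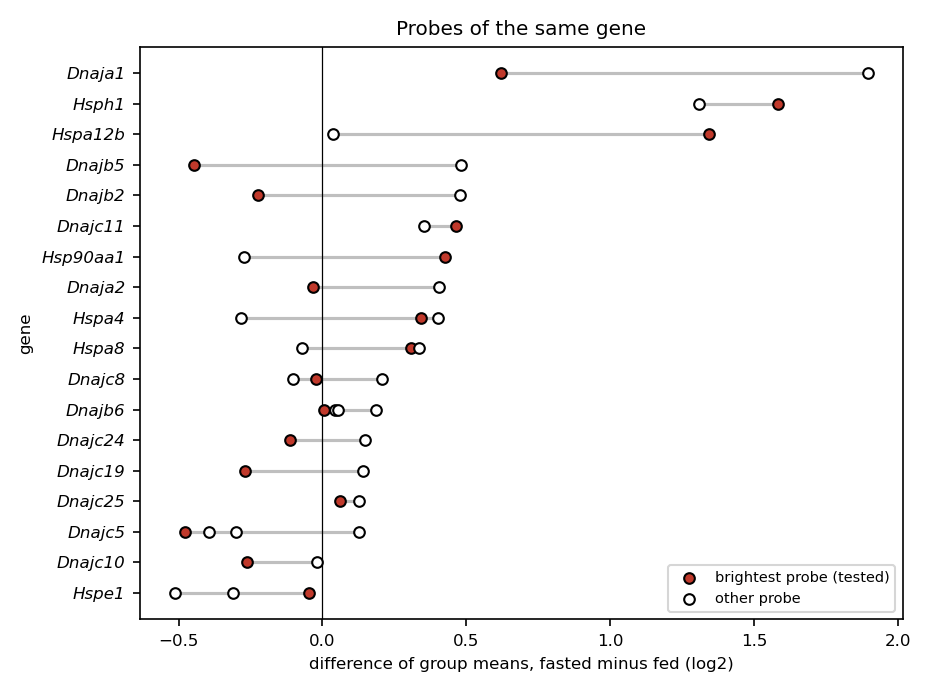
Fasted minus fed difference (log2, x axis) of every measured probe of the 18 genes with more than 1 (1 row per gene, 1 point per probe). In 10 rows the probes fall on both sides of 0, and both Hsph1 probes lie above 1.

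The partners of these chaperones were followed in a list of 48 cochaperones, prefoldin subunits, mitochondrial proteases and heat shock factors, of which 46 were measured; Bag4 and Pfdn4 were above background on 0 arrays. The difference was above 0 for 34 of the 46 (43.2% of all genes) with a median of 0.19, and 0 passed the test. Without fasted replicate 3 it was above 0 for 29 with a median of 0.04. At an unadjusted p below 0.05 there were 3 higher in the fasted crypts (3.78% of all genes) and 1 lower (2.22% of all genes). Fkbp4, the immunophilin FKBP52 that works with HSP90 on steroid receptors, read 0.69, 0.94, 0.69 and 0.16 in the fasted crypts, against -0.04, -0.66, -0.57 and -0.22 in the fed crypts. The groups did not overlap, as in 5.12% of all genes, and the difference was 0.99 (SE 0.25, unadjusted p 0.0041 and adjusted p 0.780 by limma). Hsf2, a heat shock factor of development, gave 0.99 (SE 0.38), or 0.48 with normexp background correction, while Hsf1, the main stress-responsive factor, gave 0.45 (SE 0.37). Hsf4, a heat shock factor known from the lens, went the other way. It is named here because its difference was the largest of the 46 in size, at -1.34 (SE 0.65). The fit used 7 arrays because its spot in fasted replicate 2 was an outlier spot. It read 0.78, -0.14 and 2.64 in fasted replicates 1, 3 and 4, against 1.41, 1.31, 3.41 and 2.76 in fed replicates 1 to 4. Fasted replicate 3 was its lowest array, and the difference without that array is not given. Clpb, a mitochondrial disaggregase, read 1.94, 1.61, 2.04 and 1.98 in the fasted crypts, against 2.21, 2.60, 2.31 and 2.39 in the fed crypts, with every fasted array below the fed ones (difference -0.49, SE 0.18). Clpp, the mitochondrial protease subunit, named here because its groups did not overlap either, differed by 0.32 (SE 0.17). Bag3, a stress-induced HSP70 partner in selective autophagy, gave 0.23 (SE 0.27), or 0.09 without fasted replicate 3. In a list of 22 genes known as heat shock factor targets, 20 were measured, 10 of them also among the 70, and 13 had a difference above 0 with a median of 0.27 (14 and 0.16 without fasted replicate 3); over the 10 that are not among the 70 the median was 0.08 with 5 above 0.

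The 12 gene names that failed the filter were mostly not detected. Cct8l1, Dnajb12, Dnajc12, Dnajc28, Dnajc5g, Hspa12a and Hspb3 were well above background on 0 arrays. Dnajb7 and Hspa4l reached it on 2 fasted arrays each and 0 fed arrays, and Dnajb13 on 1 fasted array. Hspb9 reached it on 2 fasted arrays and 1 fed array, and Hspa1l, a testis HSP70, on 1 fed array. Just inside the filter, at 4 arrays, were Hspb2 on 3 fasted arrays and 1 fed array, and Dnajc6 and Hspbap1 on 2 arrays of each group.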

How the data were processed

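RNA of 8 laser-captured samples was measured on single-colour (Cy5) Agilent mouse arrays, per the labels' protocols. The deposited spot intensities are background-subtracted processed signals from Agilent Feature Extraction 11.5.1.1, per the submitters' processing notes. The authors' deposited matrix of log2 values follows it in rank (Spearman correlation of at least 0.999), with column medians of 7.73 to 8.33; its scaling and centring are unknown. No pair of arrays was identical.

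Control spots were dropped (43020 of 44397 spots kept), as were outlier spots (2 to 146 probes per array); 0 probes were saturated. Of 39429 probes 27649 were named by accession through RefSeq (GRCm38.p6) and 11780 kept the file's name. Log2 signal minus the array's 75th percentile was taken for the brightest probe per gene, well above background on at least 4 arrays. Differences were tested over 19528 genes with limma 3.58.1 in R 4.3.3 (lmFit, eBayes with mean trend). Group and labelled sex were the terms, and the Benjamini-Hochberg threshold was 0.05. The fit was also run on simulated data with independent arrays, whereas arrays of the same slide correlated here (0.69 with slide as a random block). The size of difference that these arrays could detect is not given. Separate mice gave the replicates. Same-numbered arrays deviated with correlations of 0.37, -0.47, -0.45 and 0.61. The positive ones, replicates 1 and 4, also shared a slide, and the further same-slide pair, fasted replicate 2 and fed replicate 3, gave 0.54. Number and slide are thus mixed, so these values cannot tell whether the numbers pair mice. The main fit was unpaired. Probe positions are mm9; motif positions are GRCm38.p6. A protein table was not used here.

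Genes and lists were chosen with earlier results of these data known. Named genes were a fixed set of central chaperones, the 3 smallest p per family, and Hsf1, Bag3, Tcp1 and the 3 smallest p among partners; others are named where said. The remaining markers gave, as measured genes and median difference, 8 of 8 and -0.18 (goblet), 10 of 10 and 0.11 (enteroendocrine and tuft), 7 of 10 and -0.31 (leukocyte), 10 of 10 and -0.09 (stroma and muscle) and 5 of 6 and -0.14 (endothelium). Alternatives changed the scaling, the background correction (normexp, offset 50), the source of values, the filter, the probe rule, the model terms (sex, slide, replicate number, signal share), array weights, the variance model and the threshold (0.1), or left out arrays.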

Additional observations from a re-analysis of the deposited data

Results flagged for a closer look

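Among 68 groups of 4 arrays examined for a single array far from the rest, 3 were flagged. That is no larger a share than the about 1 in 20 groups that chance alone would mark. Bag3 read 0.19 in fasted replicate 3 and -0.34 to -0.29 on the other fasted arrays. Cct6b read -3.28 in fed replicate 1 and -1.49 to -1.30 on the other fed arrays. Dnaja3 read 1.26 in fed replicate 2 and 0.84 to 0.87 on the other fed arrays.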

How the results depend on the processing

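Over 26 alternatives 0 genes and 0 of the chaperone genes passed their threshold; the smallest adjusted p in limma was 0.0678, with the share of probes above background as a covariate, where 15 chaperone genes and 27.9% of all genes had an unadjusted p below 0.05, and the adjusted p of Hsph1 was 0.0742. As a random block, slide gave a smallest adjusted p of 0.154, and 13 had an unadjusted p below 0.05, beside 15.6% of all genes. With a replicate block the smallest was 0.748, the median over the chaperone genes 0.16 and the number above 0 was 48. The number above 0 ran from 39 to 53 over the alternatives. The median moved by more than the set limit with array weights, to 0.0289, beside -0.06 over all genes. The Hsph1 difference ran from 1.22 to 1.99 and kept its sign, as did 26 of 34 named genes. Hspa9 turned to 0.0549 with normexp, 0.0205 with normexp and quantile scaling, 0.0243 with slide as a fixed block, 0.0432 with array weights and 0.10 without fasted replicate 3 and fed replicate 4 together. Hspe1 turned to 0.0252 with quantile scaling, 0.0554 with normexp and 0.0682 with both. Hsp90ab1 turned to 0.13 with quantile scaling, 0.22 with normexp and quantile scaling and 0.0774 in the authors' matrix. Tcp1 turned to -0.0144 with array weights and -0.0923 without both arrays, where Hspb1 was -0.0044. With each array left out in turn, differences ran from -0.0931 to 0.0614 for Hspa9, -0.10 to 0.0143 for Hspe1, -0.0632 to 0.46 for Tcp1, -0.55 to 0.0112 for Hspb7, -0.0078 to 0.34 for Dnaja4 and -0.33 to 1.01 for Hspa1a. The causes of these turns were not tested. Genes near background, such as Hspa1a, Hspa2, Hspa12b and Cct6b, are limited by signal.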
